A study of Mus musculus with 4 samples.

Results

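Cldn18-positive spots were the spots of the 2 Ehmt2 fl/fl pancreas sections that held at least 500 UMIs (unique molecular identifiers, each standing for 1 captured probe molecule) and at least 1 UMI of Cldn18. They numbered 1911 of the 12945 Ehmt2 fl/fl spots with at least 500 UMIs, and of 26960 such spots in the whole series. The members were thus selected on the Cldn18 count itself, so that Cldn18 values describe the choice and carry no test. Section 1 (replicate 1) contributed 949 of 6483 spots and section 2 (replicate 2) contributed 962 of 6462 spots.

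The sections came from pancreas of C57Bl/6 mice given the cholecystokinin analogue caerulein to induce acute pancreatitis. All 4 mice carried the Pdx1-Cre transgene, 2 with intact Ehmt2 (Ehmt2 +/+) and 2 with both alleles floxed (Ehmt2 fl/fl), and each section was 1 sample. Caerulein was injected at 50 μg/kg once an hour for 8 injections after 12 h of fasting, and tissue was taken 18 h after the first injection from mice 4 weeks of age. Pdx1-Cre acts in the pancreatic epithelial lineage, so that vessels, fibroblasts, fat and immune cells of an Ehmt2 fl/fl section keep Ehmt2. Transcripts were captured from formalin-fixed, paraffin-embedded sections on Visium arrays through a probe set, and a spot is a small area that can hold several cells of different types. Spots with at least 500 UMIs held 6643747 and 7938386 UMIs in Ehmt2 fl/fl sections 1 and 2, and 43784930 and 7845575 UMIs in Ehmt2 +/+ sections 1 and 2. Slide 1 carried section 1 of each genotype and slide 2 carried section 2. The Y-linked gene Uty had 73 and 111 UMIs in the Ehmt2 fl/fl sections and 0 in both Ehmt2 +/+ sections, so that sex and genotype cannot be told apart. Ehmt2 itself, the gene targeted, was at 10.1 and 12.1 CPM (UMIs of the gene scaled to a common total of all UMIs) in the Ehmt2 fl/fl sections and at 19.8 and 3.95 in the Ehmt2 +/+ sections. These levels overlap, and whether any probe lies in the deleted part was not tested, so that they do not check the labels.

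Cldn18 encodes a claudin, one of the membrane proteins that seal the tight junctions between epithelial cells. It is best known from the epithelia of the stomach and the lung, and is used as a marker of gastric-type differentiation in the pancreas. Acinar cells, the enzyme-secreting majority of the exocrine pancreas, can lose enzyme expression and gain duct-like keratins during caerulein pancreatitis, a change called acinar-to-ductal metaplasia. The gene lies on the minus strand of chromosome 9, from 99689461 to 99717267 in build GRCm38, with 4 annotated protein-coding transcripts. A count per gene does not tell these transcripts apart.

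Cldn18 was found in 14.6% of spots in section 1 (95% Clopper-Pearson interval 13.8 to 15.5) and in 14.9% in section 2 (14.0 to 15.8), at 162 and 140 CPM. In the Ehmt2 +/+ sections the shares were 0.700% (0.507 to 0.942) and 0.483% (0.342 to 0.662), at 1.0 and 4.84 CPM. Intervals here cover counting error only. The 2 Ehmt2 fl/fl sections lay close together and apart from both Ehmt2 +/+ sections. The section with by far the deepest spots was Ehmt2 +/+ section 1, with a median of 6327.5 UMIs against 981 and 1113 in Ehmt2 fl/fl and 874 in Ehmt2 +/+ section 2. When every spot was thinned to 500 UMIs, the expected shares were 7.49% and 6.22% in Ehmt2 fl/fl and 0.0668% and 0.307% in Ehmt2 +/+.

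As a measure of background, the 1135 olfactory receptor genes of the probe set, which the pancreas is not known to use, were counted in the same spots. Their median share of spots with a UMI was 0.833% and 1.52% in the Ehmt2 fl/fl sections, and the highest of them reached 2.59% and 5.09%. None of these genes reached the share of Cldn18 in either Ehmt2 fl/fl section. In Ehmt2 +/+ section 2, by contrast, 52.5% of them were at or above Cldn18, and in section 1 0.0881% were. Spots with fewer than 500 UMIs, with medians of 15 and 19 UMIs, held Cldn18 in 0.712% and 0.766% of cases in the Ehmt2 fl/fl sections.

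Most Cldn18-positive spots sat on the threshold of the choice. A single Cldn18 UMI was counted in 835 spots of section 1 and in 835 spots of section 2, and 0 UMIs were counted in 5534 and 5500 spots. A pair of UMIs was counted in 104 and 106 spots, and the highest count in a spot was 4, reached by 3 and 4 spots. The positive share grew with the depth of the spot in both sections. It was 8.64% (6.56 to 11.1) and 5.82% (4.21 to 7.82) in spots of about 501 to 631 UMIs, and 25.2% (20.6 to 30.2) and 26.3% (23.2 to 29.6) in spots of about 1585 to 1995 UMIs. Median depth was 1094 UMIs in positive and 962 in negative spots of section 1, and 1427.5 and 1070 in section 2. In section 1 the deepest bin with at least 20 spots, from about 1995 UMIs, held 17.6% (8.40 to 30.9) of 51 spots. A spot without Cldn18 may therefore have held the transcript below detection.

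**Figure D1:**
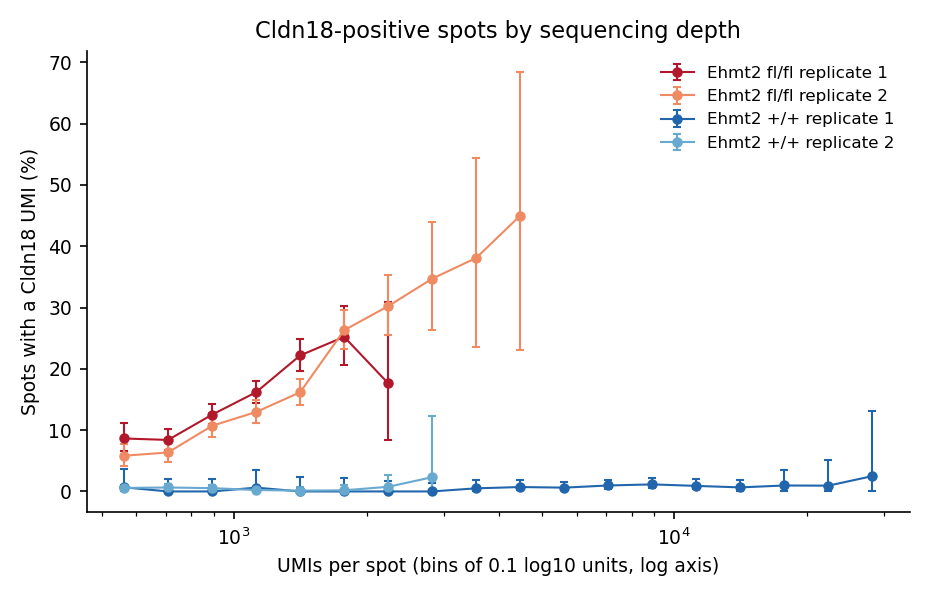
Percentage of spots with a Cldn18 UMI (y axis) against UMIs per spot (x axis, log scale, bins of 0.1 log10 units that hold at least 20 spots) in each of the 4 sections, with 95% Clopper-Pearson intervals. Both Ehmt2 fl/fl sections climb with depth, section 1 up to its last bin of 51 spots, while Ehmt2 +/+ section 1 stays at or below 2.5% up to the deepest bin shown.

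To ask what else these spots contained, each positive spot was set beside 2 negative spots of its own section drawn from the same bin of 0.1 log10 UMIs. This kept 946 of 949 positive spots with 1892 negative spots in section 1, and 884 of 962 with 1768 in section 2. The 3 and 78 positive spots left out lay in bins with too few negatives, from 2512 UMIs upwards. Median depth after matching was 1093 against 1103.5 UMIs in section 1 and 1361 against 1349 in section 2. UMIs were summed over the positive and over the negative spots of each section, and the 4 sums were compared with edgeR with section as a block. Fold changes below are from this fit, scaled by TMM (a factor that sets the typical gene to no change), and CPM given beside them are on the same scale.

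Cldn18-positive spots were richer in acinar transcripts and in the keratin transcripts Krt18, Krt8 and Krt19 than depth-matched spots without Cldn18. They were poorer in some transcripts of B lineage cells and fat and, in 1 section, of islets. These calls depended on the processing, those for Krt8 and Krt19 among them. None of the enzyme and keratin genes named below was called when all 4 sections shared the spread. DESeq2 called none of the 3 fat genes. Without islet-, lymphoid- and fat-rich spots Ighj1, Ighm, Igkc and Cd79a were not called. The higher genes described here differed from 1.20-fold (Il1rn) to 1.504-fold (Cttn), and the sparse olfactory receptor gene Olfr49 by 2.59-fold. In summed spots, fewer cells of a type and less RNA per cell cannot be told apart. Of 19214 genes tested, 65 were higher (0.338%) and 19 were lower (0.0989%) at an adjusted p below 0.05, 0.437% together, and 1270 passed at an unadjusted p below 0.05. In 80 of the 84 called genes both sections differed in the same direction, as did 10241 of all 19214 genes tested, and a fit to 2 sections favours genes in which they do. Directions were counted on ratios without TMM. The 4 exceptions were the islet genes Ins1, Ins2, Iapp and Chga, and with TMM the glucagon gene Gcg joined them, at 65.1 against 145 CPM in section 1 and 31.7 against 31.6 in section 2.

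The acinar list, of digestive enzymes, their inhibitors and zymogen granule proteins, made up 37 of the probe set's genes. Of 32 that could be tested, 24 were higher and 0 were lower, and the median log2 fold change was 0.36 beside 0.00 over all genes. The list median was 0.29 in section 1 and 0.43 in section 2. They were 24 of the 65 higher calls, and over all genes 0.338% were called higher. Abundant genes are called more readily. In simulated sums, 13 of 25 changes of 0.5 were found in genes with at least 400 UMIs, and 20 of 200 in all. Lists here and below were not compared with genes of equal abundance. Summed over the list, 2710 of 10000 UMIs were acinar in positive and 2373 in negative spots of section 1, and 2638 and 2169 in section 2. Ctrb1, a chymotrypsinogen, supplied 62.9% of the list's UMIs in positive spots.

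Trypsinogens, the precursors of the protease that activates the other pancreatic enzymes, were among the clearest differences. Prss3 was at 6874 CPM in positive and 5343 in negative spots of section 1, and at 5284 and 3645 in section 2. Positive spots were above negative spots in both sections (log2 fold change 0.45 ± 0.068 SE, edgeR adjusted p = 6.6e-08). Prss1 was at 4711 against 3756 and at 4886 against 3327 (0.44 ± 0.068, adjusted p = 1.2e-07). Gm10334, another trypsinogen-like gene, was at 3268 against 2482 and at 3322 against 2350.0 (0.45 ± 0.068, adjusted p = 6.6e-08). All 3 lie on chromosome 6 of GRCm38 between 41373814 and 41463786. These genes have near-identical copies, so that the counts of single trypsinogens are uncertain even where their direction is shared. Pla2g1b, the secreted pancreatic phospholipase, was at 765 against 615 in section 1 and 758 against 500 in section 2 (0.46 ± 0.072, adjusted p = 2.3e-07).

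Several other enzyme genes differed to a similar extent. The elastase gene Cela1 had a log2 fold change of 0.42 ± 0.068 (adjusted p = 6.8e-07) and Ctrb1 one of 0.34 ± 0.071 (adjusted p = 8.9e-04). Also higher were the lipase genes Pnlip and Cel, the colipase gene Clps, the ribonuclease gene Rnase1, the trypsin inhibitor gene Spink1 and the granule membrane gene Gp2, with log2 fold changes from 0.35 to 0.36. Amylase genes were not called, and gave 0.32 for Amy1 (adjusted p = 0.65) and -0.34 for Amy2a1 (adjusted p = 0.85). The estimate for Amy1 was close to that of Ctrb1, but rested on only 67 and 113 UMIs in positive spots. That for Amy2a1 rested on 28 and 46. Pdia2, a protein disulfide isomerase of the pancreas, was at 180 against 136 in section 1 and 129 against 92.5 in section 2 (0.44 ± 0.11, adjusted p = 0.011). Of the enzyme genes named, the trypsinogens, Pla2g1b, Cela1, Ctrb1, Cel, Spink1 and Gp2 were also called with library sizes and with DESeq2, and Pnlip, Clps, Rnase1 and Pdia2 with neither. None of them was called when all 4 sections shared the spread. Without the rich spots the trypsinogens, Cela1 and Gp2 were called, and Ctrb1 (adjusted p = 0.71), Spink1 (0.52), Cel (0.14), Pla2g1b (0.094), Pnlip (0.16), Clps (0.68), Rnase1 (0.45) and Pdia2 (0.78) were not.

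Single spots showed the same gradient. The acinar list took a median of 20.6% and 17.8% of the UMIs in spots of sections 1 and 2 without Cldn18. In spots with a single Cldn18 UMI it took 25.4% and 25.1%, and in the 114 and 127 spots with 2 or more UMIs it took 29.8% and 31.4%. These classes also differed in depth, with medians of 962, 1073 and 1228 UMIs in section 1 and 1070, 1376 and 1809 in section 2. Between depth-matched spots the gap was smaller, at 22.3% without and 26.1% with Cldn18 in section 1 and 20.03% and 25.04% in section 2. The ranges were wide and overlapped, with the middle 80% of spots with a single UMI between 12.5% and 39.4% in section 1 and between 10.2% and 39.5% in section 2. Seen the other way, Cldn18 was found in 6.72% (5.55 to 8.05) of the 25% of spots poorest in acinar transcripts and in 21.9% (19.9 to 24.0) of the richest 25% of section 1. In section 2 these shares were 5.88% (4.78 to 7.14) and 25.6% (23.5 to 27.8). The poorest spots were shallower, at medians of 845 and 908 UMIs against 1171 and 1454. The level of Cldn18 was 76.2 against 218 CPM in section 1 and 60.4 against 199 in section 2. CPM of Cldn18 was itself lower in spots below 500 UMIs, at 109 and 87.7, and the part of depth in these differences was not tested.

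**Figure D2:**
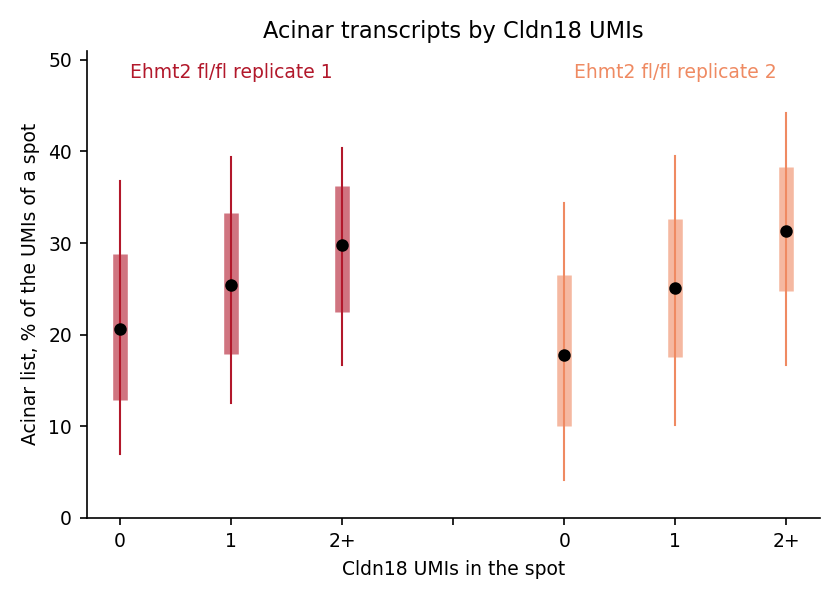
Share of the UMIs of a spot that came from the acinar list (y axis, %) in Ehmt2 fl/fl spots with 0, 1 and 2 or more Cldn18 UMIs (x axis), by section. Dots are medians, thick bars the 25th to 75th percentile of spots and thin lines the 10th to 90th percentile, and the median moves from 20.6% to 29.8% in section 1 and from 17.8% to 31.4% in section 2.

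Ehmt2 +/+ spots without Cldn18 were richer in acinar transcripts than any class of Ehmt2 fl/fl spots, at medians of 65.4% and 57.4%. The gradient within Ehmt2 fl/fl sections thus ran opposite to the order of the genotypes, since the sections with the higher acinar shares had the lower Cldn18 shares.

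Transcription factors of the acinar and pancreatic lineages were sparse, and none of the 19 tested was called. Their median log2 fold change was 0.14. Xbp1, a secretory stress regulator, gave 0.33 ± 0.099 (adjusted p = 0.12), Ptf1a, a master factor of acinar identity, 0.16 ± 0.22 (adjusted p = 0.97) and Pdx1, the gene whose promoter drives Cre, 0.14 ± 0.22 (adjusted p = 0.97). Ptf1a had 34 and 36 UMIs in the positive spots of sections 1 and 2, a depth at which moderate differences were not detectable.

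The simple-epithelium keratin genes Krt18, Krt8 and Krt19 were called higher in the positive spots, and Krt7 was not. The calls for Krt8 and Krt19 depended on the processing. Of 20 duct epithelium genes tested, 3 were higher, beside 0.338% over all genes, and 0 lower, with a list median of 0.18. Krt18 was at 1251 CPM in positive and 913 in negative spots of section 1, and at 891 and 670 in section 2 (0.43 ± 0.070, adjusted p = 8.6e-07). Its partner Krt8 was at 945 against 777 and at 1301 against 1004 (0.33 ± 0.070, adjusted p = 9.3e-04), and Krt19, a keratin of duct cells, at 243 against 172 and at 139 against 117 (0.38 ± 0.096, adjusted p = 0.024). For all 3 keratins the positive sums lay above the negative sums of their section. Krt8 and Krt19 were not called with plain library sizes (adjusted p = 0.059 and 0.31), with DESeq2 (adjusted p = 0.097 and 1.0), when all 4 sections shared the spread (adjusted p = 0.92 and 0.27) or without islet-, lymphoid- and fat-rich spots (the richest 10% for each list, an alternative added after the first results were seen; adjusted p = 0.094 and 0.52). Krt18 was not called when all 4 sections shared the spread (adjusted p = 0.40), and was called in the other 3 of these alternatives. Other duct genes did not pass the test, with 0.22 ± 0.088 for Krt7 (adjusted p = 0.59), 0.20 ± 0.22 for the duct factor Sox9 (adjusted p = 0.97) and 0.09 ± 0.071 for Spp1, which encodes osteopontin (adjusted p = 0.95).

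Among claudin and tight junction genes other than Cldn18, 2 of 25 tested were higher, beside 0.338% over all genes, and 0 lower, and the list median was 0.11. Cldn3, a widespread epithelial claudin, was at 1412 against 1134 CPM in section 1 and at 849 against 704 in section 2 (0.29 ± 0.070, adjusted p = 0.0083). Cldn7, which is found along the sides of epithelial cells, was at 284 against 234 and at 227 against 173 (0.34 ± 0.084, adjusted p = 0.018). Cldn3 and Cldn7 were not called with library sizes (adjusted p = 0.21 and 0.33), with DESeq2 (0.27 and 1.0), when all 4 sections shared the spread (0.92 and 0.27) or without the rich spots (0.19 and 0.16). Cldn4 gave 0.28 ± 0.094 (adjusted p = 0.31), Cldn2 gave 0.40 ± 0.20 (adjusted p = 0.73) and the junction genes Ocln and Tjp1 gave -0.26 ± 0.37 and 0.15 ± 0.22 (adjusted p = 0.97 for both).

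Of 45 genes on a list of injury and metaplasia response, 6 were higher, beside 0.338% over all genes, and 0 lower, with a median of 0.12. Nupr1, a stress-induced chromatin protein of the injured pancreas, was at 2812 against 2262 CPM in section 1 and at 2591 against 1858 in section 2 (0.40 ± 0.068, adjusted p = 4.7e-06). Reg3a, Reg2 and Reg3b, secreted lectins that the injured pancreas makes in quantity, had log2 fold changes of 0.42 ± 0.073 (adjusted p = 1.0e-05), 0.39 ± 0.096 (adjusted p = 0.015) and 0.29 ± 0.073 (adjusted p = 0.022). The other higher members were Clu, the chaperone clusterin (0.30 ± 0.068, adjusted p = 0.0047), and the laminin receptor gene Itgb4. Nupr1, Reg3a and Clu were also called with library sizes and with DESeq2, while Reg2, Reg3b and Itgb4 were called with neither (adjusted p = 0.25, 0.33 and 0.20 with library sizes and 1.0 for each with DESeq2). Without the rich spots only Nupr1 of the 6 was called, and Reg3b gave 0.09 (adjusted p = 0.98), and none was called when all 4 sections shared the spread. Widely used markers of injured epithelium on the list were not called, among them Cd44 (0.13 ± 0.074, adjusted p = 0.83), Lcn2 (0.12 ± 0.081, adjusted p = 0.90) and the metalloprotease gene Mmp7 (0.01 ± 0.074, adjusted p = 0.998).

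Background transcripts moved with these contrasts as well. Cldn18 was found in 18.6% of the 25% of spots poorest in olfactory receptor UMIs and in 10.1% of the richest 25% in section 1, and in 23.3% and 8.79% in section 2. Summed, olfactory receptor genes held 87.2 of 10000 UMIs in positive and 95.5 in matched negative spots of section 1, and 127 and 143 in section 2. Their part in the results was not tested.

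**Figure D3:**
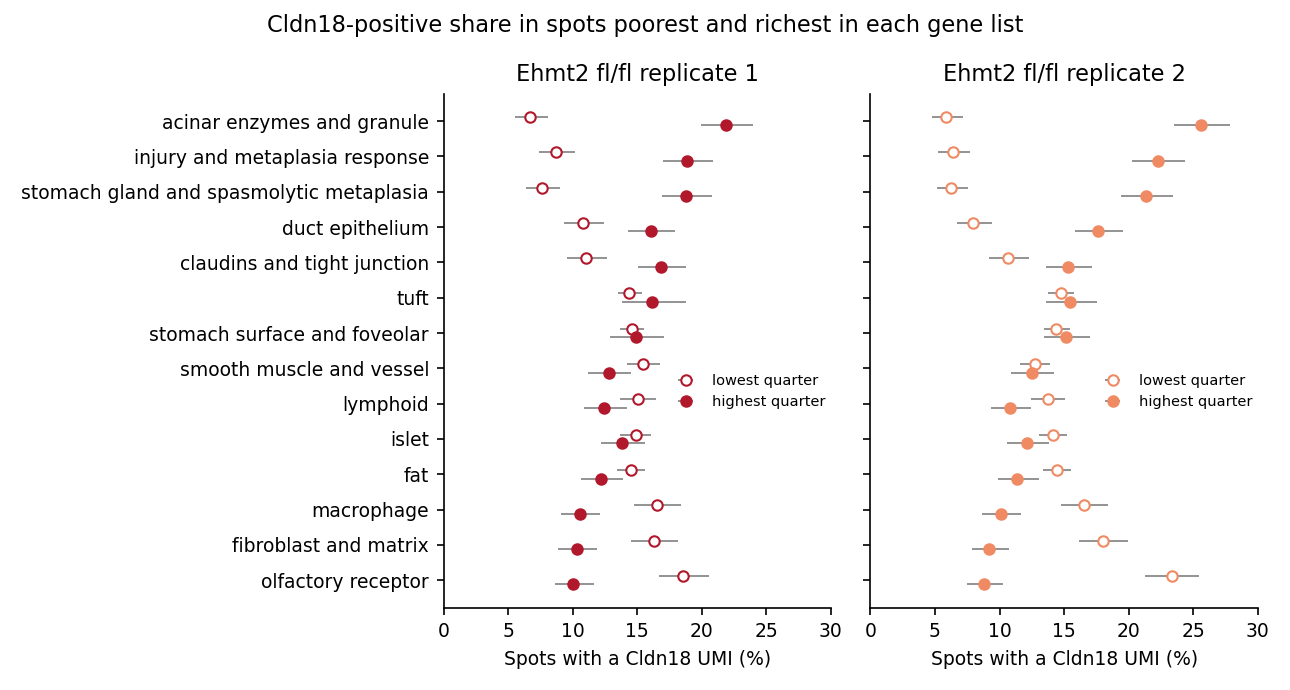
Percentage of spots with a Cldn18 UMI (x axis) in the 25% of spots poorest (open) and richest (filled) in each gene list (y axis), by Ehmt2 fl/fl section, with 95% Clopper-Pearson intervals. Where over 25% of spots lacked every gene of a list, the poorest class holds all of those spots. The pair is widest apart for acinar genes, runs the other way for fibroblast, macrophage and olfactory receptor genes, and overlaps for stomach surface genes.

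Stomach genes other than Cldn18 were for the most part not called. Of 14 surface and foveolar genes tested, 0 were higher and 0 lower, also at an unadjusted p below 0.05, and 6 of the 14 estimates were above zero, with a median of -0.01 beside 0.00 over all genes. Summed, the list held 1.69 of 10000 UMIs in positive and 1.97 in negative spots of section 1, and 2.33 and 2.43 in section 2. Tff1, a trefoil peptide of the gastric surface, was found in 2.33% of positive and 2.54% of negative spots in section 1 and in 2.60% and 3.11% in section 2 (log2 fold change -0.11 ± 0.27, adjusted p = 0.98). Anxa10, an annexin of gastric epithelium and the most abundant gene of the list, was found in 2.64% against 2.85% and in 4.86% against 4.30% (0.11 ± 0.22, adjusted p = 0.98). Muc5ac, the gastric surface mucin, gave 0.22 ± 0.36 (adjusted p = 0.97), and Vsig1, an adhesion protein of gastric epithelium, -0.36 ± 0.45 (adjusted p = 0.97). At 8 and 19 UMIs of Muc5ac and 5 and 8 UMIs of Vsig1 in the positive spots, moderate differences were not detectable. Over all spots Tff1 was found in 2.13% and 2.75% and Anxa10 in 2.39% and 3.78%, below the highest olfactory receptor genes of the same sections.

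Of 13 gland and spasmolytic metaplasia genes tested, 2 were higher, beside 0.338% over all genes, and 0 lower, and the median was -0.12. The 2 were Tff2, a trefoil peptide of gastric neck cells that is also made outside the stomach, and Clu, which supplied 96.3% of the UMIs of the list. The list median was 0.14 in section 1 and -0.37 in section 2. Summed, the list held 140 of 10000 UMIs in positive and 126 in negative spots of section 1, and 108 and 94.6 in section 2. Tff2 was at 395 against 322 CPM in section 1 and at 256 against 195 in section 2 (0.34 ± 0.080, adjusted p = 0.0078), and was found in 30.9% of positive and 27.0% of negative spots in section 1 and in 30.8% and 24.7% in section 2. Its call was lost with library sizes (adjusted p = 0.24), with DESeq2 (1.0), when all 4 sections shared the spread (0.94) and without the rich spots (0.077). Muc6, the gland mucin (-0.51 ± 0.32, adjusted p = 0.88), Gkn3 (0.11 ± 0.31, adjusted p = 0.99) and the acid pump gene Atp4a (-0.54 ± 0.32, adjusted p = 0.85) were not called. None of the 7 lung epithelium, 14 intestine, 12 secretory and mucin and 11 tuft genes tested was called, with medians of 0.13, -0.08, 0.07 and 0.01. Medians of sections 1 and 2 had opposite signs for the lung (0.40 and -0.13), intestine (0.06 and -0.10) and secretory and mucin lists (0.22 and -0.03). With none of these stomach and lung markers called but Tff2 and Clu, which are not specific to the stomach, the spots are named here only by Cldn18, and by no cell type.

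**Figure D4:**
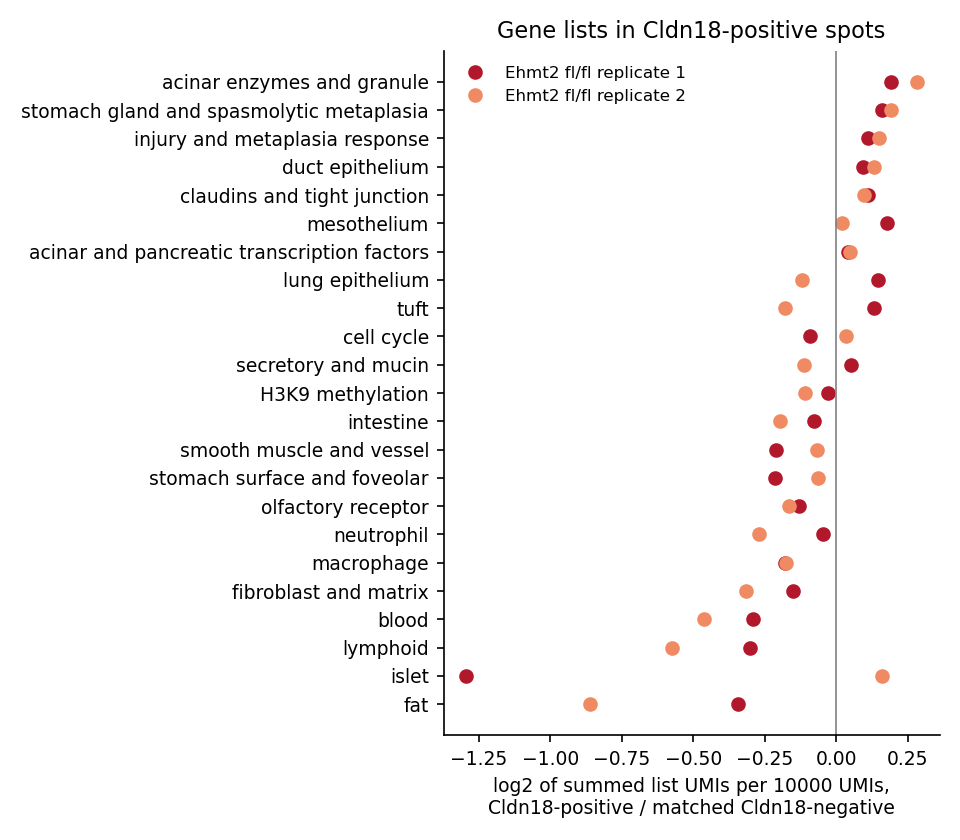
Log2 ratio of the summed UMIs of each gene list per 10000 UMIs (x axis) in Cldn18-positive over matched Cldn18-negative spots, by Ehmt2 fl/fl section, for 23 lists (y axis). Acinar, injury, duct and claudin lists lie above zero in both sections, lymphoid and fat lists below zero in both, and the islet list on opposite sides.

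The largest fold changes belonged to genes that were lower in Cldn18-positive spots, and included genes known from B lineage cells, macrophages, fat and endocrine cells. Immunoglobulin genes were among them. Ighj1, a heavy chain joining segment, was at 37.8 against 106 CPM in section 1 and at 190 against 743 in section 2 (-1.89 ± 0.099, adjusted p = 6.2e-76). Ighm was at 17.9 against 36.5 and at 37.2 against 136 (-1.68 ± 0.17, adjusted p = 5.8e-19), and the light chain gene Igkc at 18.9 against 44.8 and at 58.6 against 173 (-1.50 ± 0.15, adjusted p = 4.7e-20). Both sections were lower in positive spots for all 3. Without the rich spots Ighj1 gave -0.24, Ighm 0.00 and Igkc -0.22, and none of them was called. The B cell receptor gene Cd79a was also lower (-1.05 ± 0.20, adjusted p = 5.9e-05), though not with DESeq2 (adjusted p = 1.0). Without the rich spots Cd79a turned to 0.30 (adjusted p = 0.996). Cd79a, Ighm and Igkc made 3 of the 18 tested genes of the lymphoid list that were lower, with 0 higher, beside 0.0989% called lower over all genes. Ighj1 and Cd28 are not on that list. Among T cell genes, Cd28, a costimulatory receptor, was at 6.30 against 20.2 and at 11.9 against 25.04 (-1.27 ± 0.33, adjusted p = 0.025). Its call was lost with another seed (adjusted p = 0.145), with 1 negative per positive (0.28), when matched outside digestive enzymes (0.11), when all 4 sections shared the spread (0.265) and without the rich spots (0.246). The T cell receptor subunit gene Cd3e gave 0.16 ± 0.29 (adjusted p = 0.98).

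Alox15, a lipoxygenase of resident peritoneal macrophages, had the largest log2 fold change of all called genes, at 10.5 against 44.8 in section 1 and at 33.2 against 126 in section 2 (-1.95 ± 0.18, adjusted p = 6.85e-23). Cd5l, a secreted protein of tissue macrophages, was also lower (-1.13 ± 0.20, adjusted p = 2.6e-05), though not with DESeq2 (adjusted p = 0.86). The 16 macrophage genes of the list were all tested, and 0 were called, with 13 estimates below zero and a median of -0.14. Of 16 fibroblast and matrix genes 0 were called, again with 13 below zero and a median of -0.07. Cldn18 was found in 8.47% (6.45 to 10.9) and 7.73% (5.79 to 10.1) of the 10% of spots richest in fibroblast genes, against 15.3% (14.4 to 16.3) and 15.7% (14.8 to 16.6) of the rest. For macrophage genes it was found in 8.01% (6.04 to 10.4) and 8.66% (6.60 to 11.1) of the richest 10%, against 15.4% and 15.6% of the rest.

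Of 10 fat genes tested 3 were lower, beside 0.0989% over all genes, and 0 higher, with a median of -0.33. The 3 were Car3, an abundant carbonic anhydrase of adipocytes (45.2 against 53.7 CPM in section 1 and 55.4 against 175 in section 2, -1.25 ± 0.14, adjusted p = 1.8e-15), the adipokine gene Cfd (-1.10 ± 0.21, adjusted p = 8.0e-05) and the fatty acid carrier gene Fabp4 (-0.40 ± 0.084, adjusted p = 8.0e-04). Section 2 carried most of the difference in Car3. DESeq2 called none of the 3 (adjusted p = 1.0 for each). Without the rich spots Cfd turned to 0.30 and Car3 to 0.09, Fabp4 gave -0.00, and none of them was called. Saa1, an acute-phase apolipoprotein, was at 9.45 against 23.6 and at 13.5 against 48.3 (-1.67 ± 0.27, adjusted p = 8.6e-07). It rested on 9 and 17 UMIs in positive spots. Its call was kept with library sizes (adjusted p = 6.5e-08) and when all 4 sections shared the spread (7.4e-05). Without the rich spots it gave -1.17 and was not called (0.38), and DESeq2 gave it no adjusted p.

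Islet genes differed in section 1 and not in the same direction in section 2. The islet list held 37.8 of 10000 UMIs in positive and 92.6 in negative spots of section 1, but 11.5 and 10.3 in section 2. Ins2, which encodes insulin, was at 2350.3 against 6023 CPM in section 1 and at 458 against 352 in section 2, so that the fitted -0.65 ± 0.075 (adjusted p = 3.2e-14; 1.0 with DESeq2) rests on section 1. Iapp, the amyloid peptide secreted with insulin, followed the same pattern at 156 against 409 and 64.9 against 46.8. Resp18, a neuroendocrine secretory protein, was lower in both sections, at 24.2 against 56.7 and at 8.71 against 23.2 (-1.29 ± 0.25, adjusted p = 1.7e-04). Its call was lost with 1 negative per positive (adjusted p = 0.18), at a minimum of 1000 UMIs (0.14) and without the rich spots, where it gave -0.47 (0.98). The 10% of spots richest in islet genes held Cldn18 in 14.5% (11.9 to 17.4) of cases in section 1 and 11.8% (9.38 to 14.5) in section 2. The rest of the spots held it in 14.7% and 15.2%. Spots of a section are not replicates, so the difference between these shares was not tested.

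When the 10% of spots richest in each of the islet, lymphoid and fat lists was left out before matching, an analysis added after the first results were seen, 12 genes remained higher and 3 were lower. All 12 were among the 65, and included Krt18 (0.35), Nupr1 (0.30), Cela1 (0.31), Prss1 (0.35), Prss3 (0.35) and Sprr1a (0.62), and the acinar list median was 0.25. Of the 3 lower genes only Alox15 (-1.33) was among the 19. Ighj1, which is not on the lymphoid list, gave -0.24 (adjusted p = 0.99). Igkc, Ighm, Ins2 and Car3 gave -0.22, 0.00, -0.00 and 0.09, and Cd79a and Cfd turned to 0.30 each. Igkc, Ighm, Cd79a, Ins2, Car3 and Cfd belong to the lists by which spots were removed, so that their values there are no independent check. What the removed spots contributed to the lower genes was not tested.

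Further genes that were higher by size lay outside the acinar list and were less abundant. Cttn, which encodes the actin-binding protein cortactin, was at 77.7 against 56.7 CPM in section 1 and at 72.8 against 44.6 in section 2 (0.59 ± 0.15, adjusted p = 0.024). Cast, the inhibitor of calpain proteases, was at 72.5 against 47.8 and at 77.6 against 52.3 (0.58 ± 0.15, adjusted p = 0.026). In both, positive spots were above negative spots in each section. Itgb4, a subunit of the laminin receptor of hemidesmosomes, was at 104 against 64.5 and at 70.5 against 52.6 (0.55 ± 0.14, adjusted p = 0.022). Sprr1a, a cornified envelope protein induced in stressed epithelia, was at 164 against 114 and at 74.4 against 53.4 (0.50 ± 0.12, adjusted p = 0.012). Rbm17, a splicing factor, was at 86.1 against 65.0 and at 97.4 against 65.3 (0.50 ± 0.13, adjusted p = 0.042). Ccdc86 was at 131 against 83.3 and at 99.0 against 82.0 (0.45 ± 0.12, adjusted p = 0.046). None of these 6 genes was called with library sizes (adjusted p from 0.17 to 0.32), with DESeq2 (1.0 for each) or when all 4 sections shared the spread (0.12 to 0.27), and of them only Sprr1a was called without the rich spots. With negatives drawn by another seed Itgb4, Sprr1a and Ccdc86 were called, while Cttn gave 0.35 (adjusted p = 0.61), Cast 0.44 (0.30) and Rbm17 0.43 (0.17). That draw called 69 higher and 22 lower genes, of which 55 and 17 were among the 65 and 19. Among the remaining higher genes were Eif2ak3, the endoplasmic reticulum stress kinase PERK (0.33 ± 0.071, adjusted p = 0.0011), Sqstm1, the autophagy receptor p62 (0.31 ± 0.068, adjusted p = 0.0027), and Il1rn, the interleukin 1 receptor antagonist (0.26 ± 0.070, adjusted p = 0.039). These 3 were not called with library sizes (adjusted p = 0.074, 0.086 and 0.41), when all 4 sections shared the spread (0.61, 0.998 and 0.96) or without the rich spots (0.32, 0.077 and 0.43), and with DESeq2 Sqstm1 was called and Eif2ak3 (0.29) and Il1rn (0.55) were not.

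**Figure D5:**
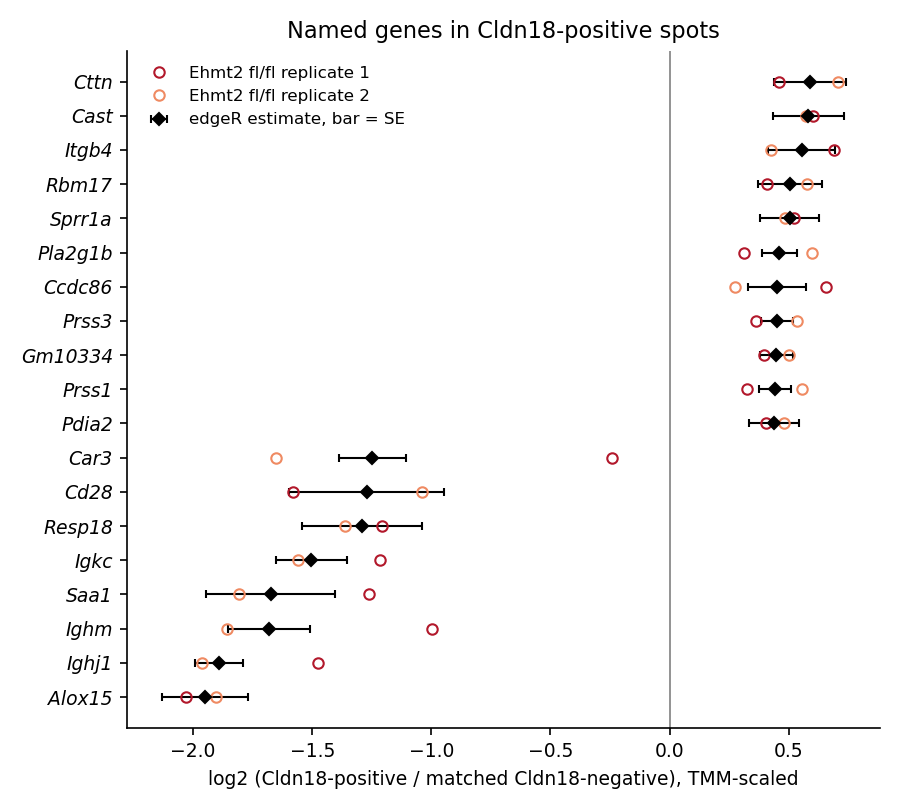
Log2 ratio of Cldn18-positive to matched Cldn18-negative spots (x axis, TMM-scaled) for 19 genes named by size (y axis). Diamonds are the edgeR estimates with their SE and circles are the 2 Ehmt2 fl/fl sections, which lie on the same side of zero for all 19 genes.

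Of 20 genes tested that write, read or erase H3K9 methylation, the mark laid down by the Ehmt2 product, 0 were called, with a median of 0.05. Ehmt2 itself had 12 and 12 UMIs in positive and 25 and 30 in negative spots of sections 1 and 2 (-0.09 ± 0.36, adjusted p = 0.99). Of 19 cell cycle genes 0 were called, with a median of 0.09 and 0.49 ± 0.26 for Mki67 (adjusted p = 0.79).

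The same contrast was made in the 43 and 38 Cldn18-positive spots of the Ehmt2 +/+ sections, each matched to 5 negative spots, and its difference between genotypes was tested. With TMM scaling 439 of 18371 genes had a higher and 2 a lower contrast in Ehmt2 fl/fl (2.40% together), but the median of all genes also shifted by 0.74 on the log2 scale. With plain library sizes the median was -0.05, and 1 gene was higher and 2 lower (0.0163%). The 3 were Car3, Chga and Ighj1, so that no enzyme or keratin gene had a contrast that differed between genotypes under both scalings. As given above, the Cldn18 share of Ehmt2 +/+ section 2 lay within the range of the olfactory receptor genes, and that of section 1 just below the highest of them, at 0.732%. In Ehmt2 +/+ section 2 the positive spots had a median acinar share of 45.5% and their matched negatives 54.7%, and in section 1 66.4% and 66.2%.

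The p-values cover no spread beyond these 2 sections, and the fit shared its estimate of spread across genes. That estimate was small (common dispersion 0.0017). A small p-value thus does not show that the sections agreed for that gene. Ins2 was called (edgeR adjusted p = 3.2e-14) with section log2 ratios of -1.36 and 0.38. When all 4 sections shared the spread, 1 gene was higher and 17 lower, and without section as a replicate block 0 higher and 0 lower genes were called, with 241 of either direction at an unadjusted p below 0.05. DESeq2 called 26 higher and 4 lower. Without section 1, 0 genes were higher and 5 lower, and without section 2, 0 were higher and 1 lower, with the spread taken from the Ehmt2 +/+ sections. At an unadjusted p below 0.05 these fits gave 125 and 87 genes. With plain library sizes in place of TMM all genes lay 0.12 lower on the log2 scale, and 25 genes were higher and 52 lower. The median of the acinar list was then 0.24, and that of the claudin list -0.01.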

How the data were processed

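The authors sequenced probe libraries of 4 formalin-fixed pancreas sections and deposited raw UMI counts per gene and spot, made with Space Ranger 2.0.1 per the file headers, on the GRCm38 build and a mouse probe set. Counts of 32285 features were used of 32589 listed, the rest being deprecated probes (0.477% to 0.803% of UMIs). Spots with at least 500 UMIs were kept, since marked tissue positions carry no barcodes and could not be joined. Barcodes are fixed array positions, and 13898 to 14336 were shared between pairs of sections. UMIs were summed per section and class and tested with edgeR 4.0.16 in R 4.3.3 (quasi-likelihood test, TMM, filterByExpr with a minimum count of 10, section as a block because both sums come from 1 animal), with Benjamini-Hochberg adjustment over all genes tested, at a threshold of 0.05. Cldn18 was left out of the test. DESeq2 1.42.0 was an alternative. Negatives were drawn with a fixed seed, 2 for each positive spot. Genes named by size were the 12 highest and 8 lowest called genes with at least 20 UMIs in each section (in positive spots for higher genes, in negative spots for lower ones) and the same direction in both, beside examples from the gene lists (called members first, then by abundance, with some well-known markers added after their values were seen). Other genes named by value, and Amy1 and Amy2a1, were chosen after their values were seen. Some of the genes these rules select are not reported here. The members and lists were chosen with earlier results of these data known. Sums of 19214 genes were also simulated, with the common dispersion of the fit used for every gene. The test found 20 of 200 genes given a log2 change of 0.5 and 114 of 200 given one of 1. Of those with at least 400 UMIs it found 13 of 25 and 24 of 24. There were 2 and 1 false calls. No simulated gene varied between sections beyond that dispersion, as the islet genes did, so these counts do not measure false calls in the real data. Gene positions are from GENCODE M21.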

Additional observations from a re-analysis of the deposited data

Results flagged for a closer look

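In 3 genes the difference between Cldn18-positive and Cldn18-negative spots was not the same in the genotypes by edgeR's test of that difference under both TMM and plain library sizes. The immunoglobulin gene Ighj1 differed by -4.76 on the log2 scale (adjusted p = 1.2e-07; -5.81 with library sizes), with 36 against 216 and 240 against 2047 UMIs in Ehmt2 fl/fl and 6 against 1 and 11 against 5 in Ehmt2 +/+. The adipocyte gene Car3 differed by -3.37 (adjusted p = 0.0030; -4.53 with library sizes), with 43 against 109 and 70 against 483 UMIs in Ehmt2 fl/fl and 1 against 0 and 10 against 6 in Ehmt2 +/+. The endocrine gene Chga differed by 2.15 (adjusted p = 9.6e-08; 1.40 with library sizes), with 238 against 966 and 165 against 268 UMIs in Ehmt2 fl/fl and 20 against 448 and 3 against 8 in Ehmt2 +/+. Few UMIs of Ighj1 and Car3 were counted in Ehmt2 +/+, and for Chga the sections of each genotype did not share a direction. With DESeq2 Ighj1 was called (adjusted p = 2.7e-05) and Car3 and Chga were not (1.0 for both), and at a minimum of 1000 UMIs none of the 3 was called (0.40 for Ighj1, 0.83 for Car3 and 0.92 for Chga).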

How the results depend on the processing

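The count of higher genes (65) was 26 with DESeq2, 25 with library sizes, 32 with 1 negative per positive, 116 with no matching, 141 when spots were matched on UMIs outside digestive enzymes, 2 for spots with at least 2 Cldn18 UMIs, 14 at a minimum of 1000 UMIs, 1 when all 4 sections shared the spread, 0 without the replicate block, 0 to 0 when 1 section was left out, and 12 without islet-, lymphoid- and fat-rich spots (chosen after seeing the data). The count of lower genes (19) was 4, 52, 30 and 10 with DESeq2, library sizes, matching outside enzymes and at least 2 Cldn18 UMIs, 0 without the replicate block, 1 to 5 when 1 section was left out, and 3 without those spots. Genes with a higher contrast in Ehmt2 fl/fl (439) numbered 0 with DESeq2 (263 at an unadjusted p below 0.05), 1 with library sizes, 0 at 1000 UMIs (1095 unadjusted) and 6 to 531 with 1 section left out. Those with a lower contrast (2) numbered 1, 2 and 0 in these fits and 1 to 4 with 1 section left out. The acinar median (0.36) was 0.24 with library sizes, 0.57 with no matching, 0.55 when matched outside enzymes, 0.25 without the rich spots and 0.25 to 0.40 with 1 section left out. The stomach surface median (-0.01) was -0.13 with library sizes, -0.062 with no matching, 0.075 at 1000 UMIs and -0.126 to 0.0754 with 1 section left out. The percentage of positive spots in Ehmt2 fl/fl was 19.2% and 19.6% at 1000 UMIs, 7.49% and 6.22% after thinning and 1.76% and 1.97% for 2 or more UMIs. In Ehmt2 +/+ it was 0.744% and 0.276%, 0.0668% and 0.307%, and 0.0163% and 0%. Among the genes named by size, Cast turned to -0.25 for spots with at least 2 Cldn18 UMIs, and Ighm (0.000114) and Car3 (0.0867) turned sign without the rich spots. Other lower genes that turned sign without those spots were Cfd (0.299), Cd79a (0.297), Chga (0.184) and Iapp (0.0523). The cause of these changes was not tested. Of 293 alternative values of the 20 genes named by size, 149 kept their call, 141 kept their direction only and 3 reversed.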

Other observations

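Spots with fewer than 500 UMIs held 52 and 60 Cldn18-positive spots among 7300 and 7829 in the Ehmt2 fl/fl sections. Cldn18 was at 109 and 87.7 CPM in them, against 162 and 140 in the deeper spots of the same sections. In Ehmt2 +/+ the shallow spots held 3 and 12 positive spots, at 5.73 and 11.7 CPM. In Ehmt2 +/+ section 2 Cldn18 was found in 1.17% of the 25% of spots poorest in acinar transcripts and in 0.305% of the richest 25%, the reverse of the order in both Ehmt2 fl/fl sections, and this difference was not tested. In Ehmt2 +/+ section 1 these shares were 0.586% and 0.977%.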
